A study of Mus musculus with 16 samples.

Results

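The data compare what HFD/STZ diabetes did to gene expression in isolated glomeruli, the capillary tufts that filter blood, with what it did in renal cortex, which is mostly tubules. For each gene the change in cortex (diabetic against control) was subtracted from the change in glomeruli in 1 model of all 4 groups, and genes that moved alike and genes that moved in opposite ways were taken from the same model. All 16 of the 16 libraries of the series entered, with 19047 genes whose symbols joined the glomerular and the cortex count table. Of these, 16515 passed the filter on low counts and were tested. The groups are control glomeruli, glomeruli of HFD/STZ mice, control renal cortex and renal cortex of HFD/STZ mice, with 4 libraries each, all labelled WT (wild type), batch 1 and an age of 24 weeks. HFD/STZ stands for a high-fat diet with streptozotocin, a drug that kills beta cells of the pancreas. The effects of diet, toxin and high blood sugar cannot be told apart in these groups, and "diabetic" below stands for all of them. The labels do not say that the libraries of a group came from separate mice, so p-values measure only how these samples vary, and that may be technical.

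Library totals ran from 36339294 to 41876031 counts in glomeruli and from 57473100 to 72352656 in cortex. Glomerular control libraries 3 and 4 were far closer to each other (chi-square per gene 2.77) than other control pairs (46.0 to 85.2), and so were diabetic libraries 1 and 4 (6.75 against 66.9 to 98.8). Each pair was summed and counted as 1 sample, which left n = 3 control (1, 2 and 3+4) and n = 3 diabetic (1+4, 2 and 3) glomerular samples, against n = 4 and n = 4 in cortex. Values below are CPM, counts scaled to a common library size, on TMM factors, and samples are listed in that order, 1 to 4 in cortex. Podocyte and proximal tubule markers fit the labelled tissues. The 30 podocyte markers summed to 15279 to 19283 CPM in control glomeruli and 2080 to 2166 in control cortex. The 24 proximal tubule markers summed to 201 to 243 and 46422 to 68114 CPM. Smooth muscle markers (12) stood above the podocyte sums in control glomeruli, at 20528 to 22762 CPM, against 381 to 516 in control cortex. In diabetic glomerular samples 1+4, 2 and 3 they summed to 4206, 4668 and 7260 CPM. The source of these smooth muscle transcripts was not tested. Glomerular libraries were not free of tubule transcripts, and the amount moved with diabetes. Proximal tubule markers summed to 2005, 280.3 and 963 CPM in diabetic glomerular samples 1+4, 2 and 3, and 21 distal nephron and collecting duct markers to 2187, 161 and 993 against 86.3 to 112 in the controls. In bulk samples, fewer cells of a type and less RNA per cell cannot be told apart. The 2 count tables use different identifiers, symbols in glomeruli and Ensembl IDs in cortex, and their annotations and counting are not given. A level in glomeruli set beside a level in cortex may therefore differ through the counting alone. The 2 diabetic effects are each taken within 1 table.

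**Figure D1:**
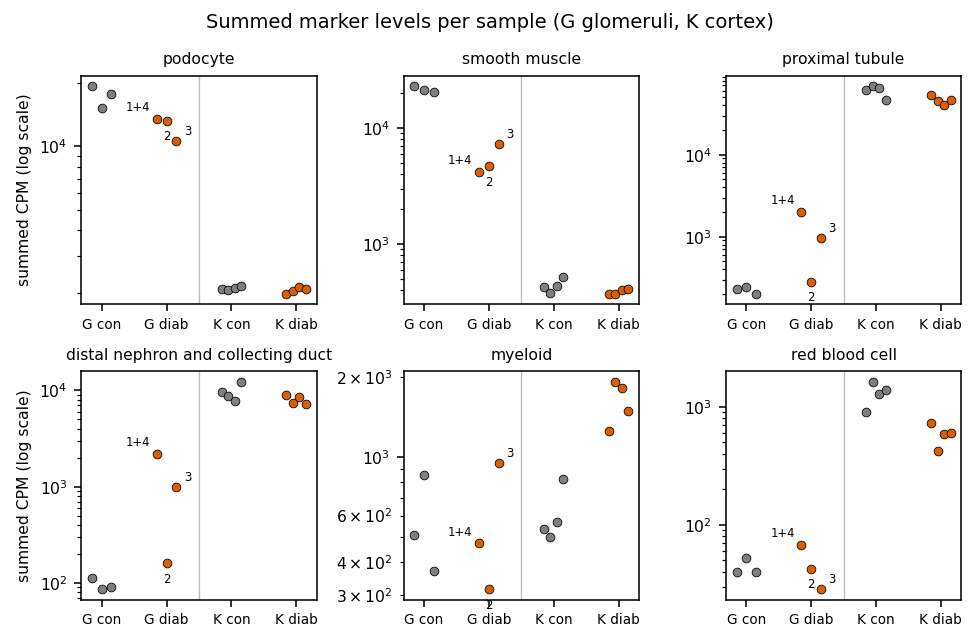
Summed CPM of marker genes (log scale) per sample for 6 cell types, with control samples in grey and diabetic samples in orange, glomeruli (G) left and cortex (K) right of the line; numbers name the diabetic glomerular samples. Proximal tubule markers stand at 2005, 280.3 and 963 CPM in diabetic glomerular samples 1+4, 2 and 3, against 201 to 243 CPM in the controls.

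A glomerulus holds podocytes, which wrap the capillaries and form the filtration slits, fenestrated endothelial cells and the mesangial cells between them. The cortex around it is built mainly of proximal tubules, which take back glucose, amino acids and salt and burn fatty acids to do so. Damaged tubule cells are known to switch on KIM-1 (Havcr1) and SOX9, p53 targets such as Cdkn1a, and chemokines and interferon-induced genes that draw and mark immune cells. ATF4, a transcription factor of the integrated stress response, is known to raise genes of amino acid supply such as Asns when amino acids or folded protein run short.

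Taken over all genes tested, the effects of diabetes in glomeruli and cortex were nearly uncorrelated. Over the 16515 genes tested, the correlation of the 2 log2 fold changes was 0.04 (Pearson) and 0.01 (Spearman), a description across genes, which are not independent replicates. Of these genes 8318 were called in neither tissue, by the rule given next, and no correlation was taken over called genes alone. A gene was called where edgeR's quasi-likelihood test gave a Benjamini-Hochberg adjusted p under 0.05; log2 changes are given ± their standard error. In glomeruli 3689 genes (22.3% of those tested) were called higher and 3037 (18.4%) lower, and in cortex 1651 (10.0%) and 1065 (6.45%). The difference between the effects was called above 0 for 3109 genes (18.8%) and below 0 for 2682 (16.2%). Both tissues were called for 1245 genes, in the same direction for 716 (57.5%) and in opposite directions for 529 (42.5%).

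Among the genes called in both tissues, 465 (2.82% of those tested) rose in both, 251 (1.52%) fell in both, 204 (1.24%) rose in glomeruli and fell in cortex, and 325 (1.97%) fell in glomeruli and rose in cortex. The 465 were 12.6% of the genes that rose in glomeruli and 28.2% of those that rose in cortex, and the 251 were 8.26% and 23.6% of those that fell. The 204 were 5.53% of the glomerular increases and 19.2% of the cortex decreases, and the 325 were 10.7% of the glomerular decreases and 19.7% of the cortex increases. Over all genes tested, 22.3% rose and 18.4% fell in glomeruli, and 10.0% rose and 6.45% fell in cortex. The shares of the same-direction classes were above these, and those of the opposite classes were near or below them. Calling alike did not always mean moving by like amounts: of the 465, the difference between tissues was called for 112, in 91 with the larger rise in glomeruli. Of the 251, it was called for 29, all with the larger fall in glomeruli. For the others no difference was detected, which does not show that the effects were equal. The median log2 change of the 465 was 0.93 in glomeruli and 0.73 in cortex, and of the 251 it was -0.45 and -0.36, beside 0.05 and -0.00 over all genes tested. The opposite groups had medians of 0.62 and -0.47, and of -0.60 and 0.49. Single samples of both tissues weighed on these counts. Without glomerular control 3+4, 305 genes rose in glomeruli and fell in cortex. Without diabetic cortex 3, 153 genes fell in both, 102 rose in glomeruli and fell in cortex and 213 did the reverse. Without diabetic cortex 4, 166 fell in both, and without cortex control 1 or 3 or diabetic 2 or 4, between 111 and 135 rose in glomeruli and fell in cortex.

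**Figure D2:**
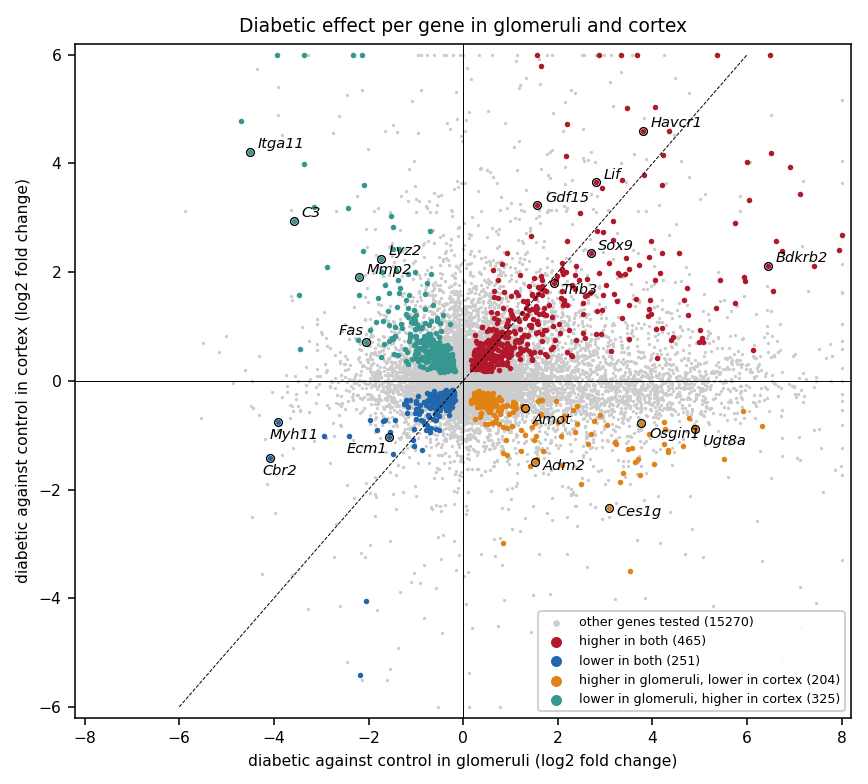
Log2 fold change of each tested gene in glomeruli (horizontal) and cortex (vertical), diabetic against control, with genes called in both tissues coloured by direction, values beyond the axes drawn at the edge and a dashed line where both effects are equal. The cloud has next to no slope (Pearson 0.04), and genes called alike (465 and 251) and in opposite ways (204 and 325) lie on every side of the origin.

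The genes that rose most in both tissues included markers of tubule injury. The plot of genes called in the same direction shows several of them sample by sample. Genes named for the largest changes of a class were taken only where groups did not overlap in either tissue. For them that separation is a condition of their choice and not a result. Havcr1 (GRCm38 chromosome 11, 46735080 to 46779578) encodes KIM-1, a receptor that damaged proximal tubule cells show on their surface. It was at 0.411, 28.8 and 0.741 CPM in control and 109, 124 and 177 in diabetic glomeruli, and at 1.25, 1.51, 1.67 and 3.87 in control and 20.4, 68.6, 76.1 and 37.8 in diabetic cortex. No diabetic sample overlapped the controls, but control glomerular sample 2 stood far above the other controls. The log2 change was 3.80 ± 1.14 in glomeruli (adjusted p = 0.0185) and 4.59 ± 1.06 in cortex (0.0123), and the difference of -0.79 ± 1.42 was not called (95% interval -3.87 to 2.29). Without control glomerular sample 2 the difference turned to 3.20 (adjusted p = 0.0146), so for Havcr1 a like size in the 2 tissues rests on that sample. With sample 2 as the only diabetic glomerular sample, the glomerular change was 3.66 and no longer called. That fit, used again below, leaves 1 diabetic glomerular sample, assumed to vary like the other groups. Sample 2 was singled out for its low sums of tubule markers.

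Sox9 (GRCm38 chromosome 11, 112782224 to 112787760), a transcription factor of developing and regenerating tubules, rose in both tissues with no detected difference. Its levels were 6.88, 9.91 and 5.12 CPM in control and 47.6, 52.4 and 41.2 in diabetic glomeruli, and 0.626, 1.26, 1.49 and 1.05 and 4.84, 5.58, 8.17 and 3.92 in control and diabetic cortex. The log2 changes were 2.69 ± 0.32 (adjusted p = 2.45e-05) and 2.34 ± 0.29 (0.000374), with a difference of 0.35 ± 0.42 (95% interval -0.55 to 1.25, adjusted p = 0.554). Lif (GRCm38 chromosome 11, 4257557 to 4272514), a cytokine of the interleukin-6 family, was at 6.09, 20.1 and 6.11 CPM in control and 77.3, 87.4 and 59.8 in diabetic glomeruli, and at 0.756, 0, 0.386 and 0.532 and 2.58, 6.51, 8.25 and 4.14 in cortex. It rose by 2.80 ± 0.61 in glomeruli (0.00301) and 3.65 ± 0.64 in cortex (0.00314). In both genes every diabetic sample lay above every control sample of its tissue, as their choice required. For Lif the difference between tissues, -0.85 ± 0.86, was not called on counts, but on log2(FPKM + 1) it was 1.70, in the other direction (limma, adjusted p = 0.00286), a scale that understates the change of a gene as low as Lif in cortex.

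Some shared increases were larger in glomeruli. Bdkrb2 (GRCm38 chromosome 12, 105563226 to 105595237), the B2 receptor for bradykinin, went from 0.137, 0.422 and 0.0265 to 17.1, 18.2 and 9.72 CPM in glomeruli and from 2.59, 1.51, 1.08 and 1.26 to 11.7, 5.13, 5.84 and 5.28 in cortex. Its changes of 6.44 ± 0.70 and 2.12 ± 0.47 differed by 4.32 ± 0.81 (edgeR adjusted p = 0.00130). Foxj1 (GRCm38 chromosome 11, 116330704 to 116335399), the master regulator of motile cilia, rose from 3.89, 7.36 and 3.53 to 83.1, 94.96 and 66.6 CPM in glomeruli and only from 0.432, 1.02, 0.918 and 0.408 to 1.81, 2.30, 4.00 and 1.94 in cortex (4.06 ± 0.40 and 1.86 ± 0.37, difference 2.20 ± 0.52, adjusted p = 0.00608). Neither gene overlapped between groups in either tissue, as their choice required. The other genes with the largest change in both tissues were Adgra1, Acsbg1 (an acyl-CoA synthetase), Ltc4s (leukotriene C4 synthase), Oasl1 (an interferon-induced gene), Ms4a6b and Olfm2, whose increases ran from 2.20 to 4.20 in glomeruli and from 1.76 to 3.61 in cortex. Adgra1 lost its cortex call without cortex control 1 or 4 or diabetic cortex 3 (adjusted p = 0.0510 to 0.0545), and Ms4a6b its glomerular call with diabetic sample 2 alone (0.0869). All genes tested had 22.3% higher and 18.4% lower in glomeruli and 10.0% and 6.45% in cortex. Over the 21 tested genes of a list of tubular injury and repair, 10 were called higher and 3 lower in glomeruli and 10 and 0 in cortex, with 4 higher in both. Among these, Krt20, a keratin of injured tubules, rose from 0.137, 0.316 and 0.238 to 31.1, 35.5 and 17.6 CPM in glomeruli and from 0, 0, 1.76 and 0.177 to 2.84, 9.20, 13.8 and 5.00 in cortex. With diabetic sample 2 as the only diabetic glomerular sample, the median log2 change of the injury list in glomeruli was 0, against 0.77 with all samples. The part of tubule RNA in these rises was not tested.

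**Figure D3:**
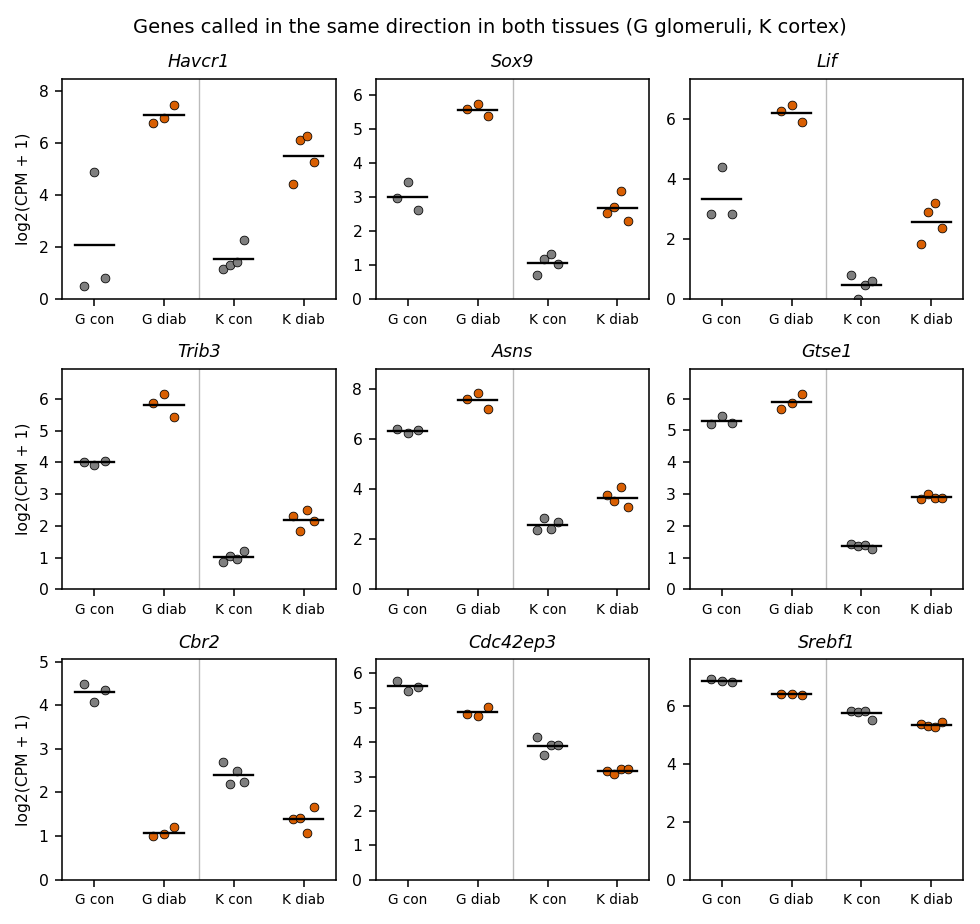
Log2(CPM + 1) per sample of 9 genes called in the same direction in both tissues, control samples in grey and diabetic samples in orange, with a bar at the group mean; glomeruli (G) are left and cortex (K) right of the line in each panel. Diabetic samples lie above the controls in the first 6 panels and below them in the last 3, in both tissues.

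Some genes that ATF4 is known to raise went up in both tissues. Of 28 tested genes of the unfolded protein response and ATF4, 8 rose and 3 fell in glomeruli, and 13 rose and 0 fell in cortex, with 5 higher in both: Trib3, Asns, Mthfd2, Sesn2 and Chac1. The difference was called below 0 for 9 of the list and above 0 for 2. Over all genes tested, 22.3% rose and 18.4% fell in glomeruli, 10.0% and 6.45% in cortex, and 2.82% rose in both. The glomerular rises of the list lay near their share. The difference was called below 0 for 16.2% and above 0 for 18.8% of all genes tested. The windows upstream of the RefSeq starts of Asns and Chac1 are shown because they hold TGATGNAA, the core of the site at which ATF4 binds with its C/EBP partners, written in capitals here. They are RefSeq sequences on GRCm38.p6, 5′ to 3′ on the gene's strand.
Asns, chr6:7693225-7693459, minus strand: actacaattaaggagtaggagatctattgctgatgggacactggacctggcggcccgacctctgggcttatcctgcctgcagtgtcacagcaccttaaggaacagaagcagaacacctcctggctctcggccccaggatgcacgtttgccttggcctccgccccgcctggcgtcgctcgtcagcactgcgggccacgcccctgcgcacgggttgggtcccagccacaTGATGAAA
Chac1, chr2:119350992-119351241, plus strand: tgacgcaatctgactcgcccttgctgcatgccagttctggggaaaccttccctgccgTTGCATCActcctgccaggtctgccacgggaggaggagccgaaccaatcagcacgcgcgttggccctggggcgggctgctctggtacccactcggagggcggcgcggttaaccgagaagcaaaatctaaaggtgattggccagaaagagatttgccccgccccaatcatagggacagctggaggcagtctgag
In Chac1 the match is on the other strand. Both strands were searched in the 250 bases before each RefSeq start, and 3.45% of 32851 such windows hold a match. The windows of Trib3, Sesn2 and Mthfd2 do not hold these letters. A match is a description and not a measured binding site.

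Asns (asparagine synthetase, GRCm38 chromosome 6, 7675169 to 7693254) stood at 84.5, 74.6 and 81.7 CPM in control and 196, 229.5 and 148 in diabetic glomeruli, and at 4.10, 6.25, 4.30 and 5.46 and 12.5, 10.5, 15.95 and 8.73 in control and diabetic cortex. Its rise was 1.25 ± 0.21 in glomeruli (adjusted p = 0.000495) and 1.25 ± 0.19 in cortex (0.00137), and the difference was 0.00 ± 0.31 (95% interval -0.66 to 0.67). Trib3 (GRCm38 chromosome 2, 152337422 to 152344032), a pseudokinase that dampens AKT signalling, went from 15.2, 14.2 and 15.7 to 57.98, 69.7 and 42.5 CPM in glomeruli and from 0.820, 1.07, 0.955 and 1.31 to 3.93, 2.62, 4.64 and 3.43 in cortex. The log2 changes of 1.92 ± 0.21 and 1.81 ± 0.21 again differed by less than their error (0.11 ± 0.30, adjusted p = 0.808). Mthfd2, of mitochondrial folate metabolism, rose by 0.96 ± 0.18 and 1.12 ± 0.17. Groups stood apart for all 3 genes in both tissues, for Trib3 as its choice required. Among the diabetic glomerular samples, sample 2 was the highest for each. Chac1, which degrades glutathione and was outside the naming rule, rose by 2.02 ± 0.31 in glomeruli and 1.05 ± 0.29 in cortex, where its groups overlapped, and lost the cortex call when cortex control 1 or 2 or diabetic cortex 1 or 3 was left out (adjusted p = 0.0647 to 0.0724). Other members of the list moved in 1 tissue: Atf5 rose in cortex (1.13 ± 0.14) but not detectably in glomeruli (0.14 ± 0.16), with a difference of -0.98 ± 0.21 (adjusted p = 0.00305).

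Targets of p53 rose in cortex, and fewer of them were called in glomeruli. Of 22 tested targets 19 rose and 0 fell in cortex, and 8 rose and 2 fell in glomeruli, and the difference was called above 0 for 3 and below 0 for 16. The list's median was 1.04 in cortex and 0.23 in glomeruli. Over all genes tested, 10.0% rose and 6.45% fell in cortex, and 22.3% rose and 18.4% fell in glomeruli. The difference was above 0 for 18.8% and below 0 for 16.2% of them. Mdm2, Bax, Trp53inp1, Sesn2, Gdf15 and Gtse1 were higher in both tissues. With diabetic sample 2 alone the glomerular changes of Mdm2, Bax and Trp53inp1 were 0.54, 0.26 and 0.55, and their calls were lost. The glomerular call of Bax was also lost without any 1 of 8 samples, cortex samples among them (edgeR adjusted p = 0.0506 to 0.183). Gtse1 (GRCm38 chromosome 15, 85859745 to 85876573), which restrains p53 in G2, was at 35.4, 42.97 and 36.3 CPM in control and 50.2, 57.2 and 69.99 in diabetic glomeruli, and at 1.68, 1.58, 1.65 and 1.40 and 6.17, 6.95, 6.39 and 6.38 in cortex. Its rise was smaller in glomeruli (0.63 ± 0.12) than in cortex (2.04 ± 0.12), a difference of -1.41 ± 0.17 (adjusted p = 4.34e-05). Gdf15 (GRCm38 chromosome 8, 70629393 to 70632456), a stress hormone of the TGF-beta family, rose from 75.01, 74.3 and 62.9 to 214, 235 and 178 CPM and from 6.74, 6.48, 8.65 and 14.5 to 53, 87.4, 122 and 78.6 (1.57 ± 0.31 and 3.23 ± 0.29). Cdkn1a, which encodes the cell cycle inhibitor p21, was already at 549, 581 and 452 CPM in control glomeruli and stayed at 418, 441 and 615 in diabetic ones. In cortex it climbed from 9.09, 10.5, 19.05 and 21.01 to 170.2, 152, 183 and 198 CPM (3.56 ± 0.26, adjusted p = 1.13e-05), and the difference was -3.66 ± 0.37 (1.40e-05). Eda2r, a receptor of the TNF family, showed the same shape, with 67.3, 91.6 and 87.5 and 57.9, 64.5 and 102 CPM in control and diabetic glomeruli and 0.432, 0.279, 0.478 and 0.674 and 11.8, 14.6, 14.5 and 13.2 in cortex (difference -4.96 ± 0.33).

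Complement C1q and some immune cell genes were also called higher in both tissues. C1qb (GRCm38 chromosome 4, 136880129 to 136886187) was at 16.5, 14.7 and 11.5 CPM in control and 27.1, 22.6 and 77.2 in diabetic glomeruli, and at 10.7, 10.3, 12.6 and 18.2 and 33.1, 49.3, 50.9 and 38.2 in cortex. The changes were 1.57 ± 0.40 (adjusted p = 0.00803) and 1.72 ± 0.35 (0.00657). Diabetic glomerular sample 3 was the highest, and for its partners C1qa and C1qc the glomerular call was lost without that sample (adjusted p = 0.115 and 0.0536; for C1qa also without control 3+4, 0.0706), and the difference between tissues was then called (-1.29 and -0.95, adjusted p = 0.0187 and 0.0305). With diabetic sample 2 alone the glomerular change of C1qb was 0.71 and not called (adjusted p = 0.134). The 22 tested myeloid markers, of which C1qa, C1qb and C1qc are 3, summed to 371 to 856 CPM in control glomeruli and 472, 316 and 946 in diabetic samples 1+4, 2 and 3, ranges that overlap. In cortex they summed to 499 to 823 in control and 1254 to 1918 in diabetic samples. Of the 22, 10 rose and 1 fell in glomeruli and 18 rose in cortex, 9 of them in both, and the difference was called above 0 for 3 and below 0 for 2. With diabetic sample 2 alone 3 rose and 1 fell in glomeruli, and the difference was called above 0 for 0 and below 0 for 7. The part of immune cell numbers in these increases was not tested. Lck, a kinase of T cells, went from 1.37, 1.63 and 1.07 to 4.23, 3.49 and 2.56 CPM and from 1.49, 1.53, 1.82 and 1.70 to 3.08, 6.79, 4.00 and 3.85 (1.35 ± 0.31 and 1.44 ± 0.26). It was the only 1 of 15 tested lymphocyte markers called in glomeruli, against 6 in cortex, and Jchain, of antibody-secreting cells, rose by 3.42 ± 0.39 in cortex beside -0.47 ± 0.59 in glomeruli (difference -3.89 ± 0.70, adjusted p = 0.00108).

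Smaller shared increases covered several pathways. Ddit4, an inhibitor of mTORC1 signalling, rose from 43.1, 55.2 and 37.8 to 187, 204 and 176 CPM in glomeruli and from 23.5, 21.3, 33.6 and 36.5 to 93.5, 108, 76.3 and 54.1 in cortex (2.06 ± 0.26 and 1.53 ± 0.22). Eno1, of glycolysis, rose by 0.43 ± 0.10 and 0.66 ± 0.09, and Txnrd1, the thioredoxin reductase regulated by NRF2, by 0.81 ± 0.09 and 0.32 ± 0.08. Of the TGF-beta and BMP list (32 tested) only Bmp6, from 13, 21.6 and 11.6 to 41.9, 31.7 and 33.98 CPM in glomeruli and from 77.1, 67.98, 62.3 and 73.3 to 114, 121, 114 and 117 in cortex, and Inhbb, an activin subunit (2.23 ± 0.25 and 0.93 ± 0.22), were called higher in both. Groups did not overlap in either tissue for any of these 5 genes.

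The genes that fell in both tissues were fewer and mostly fell by less. Cbr2 (GRCm38 chromosome 11, 120729489 to 120732114), a carbonyl reductase, dropped furthest: from 21.4, 15.9 and 19.4 to 1.00, 1.05 and 1.29 CPM in glomeruli (-4.09 ± 0.27, adjusted p = 1.40e-07) and from 5.51, 3.60, 4.59 and 3.74 to 1.64, 1.65, 1.10 and 2.16 in cortex (-1.41 ± 0.21, 0.000985). The fall was larger in glomeruli, with a difference of -2.67 ± 0.32 (adjusted p = 4.93e-05). Ecm1, extracellular matrix protein 1, was at 309, 333 and 297 CPM in control and 91.9, 90.5 and 136 in diabetic glomeruli, and at 143, 82.1, 105 and 151 and 70.2, 43.1, 60.02 and 60.95 in cortex (-1.56 ± 0.24 and -1.04 ± 0.20). Cdc42ep3 (GRCm38 chromosome 17, 79333727 to 79355091), an effector of the GTPase CDC42 that organises septins, fell by nearly the same amount in both: from 54, 44.3 and 47.5 to 27.5, 26.02 and 31.8 CPM in glomeruli and from 16.9, 11.3, 14.01 and 14.1 to 7.89, 7.43, 8.41 and 8.40 in cortex. Its log2 changes of -0.77 ± 0.13 and -0.81 ± 0.12 left a difference of 0.04 ± 0.18 (95% interval -0.34 to 0.42). Samples of control and diabetic mice stood apart for all 3 genes in both tissues, as their choice required. With library totals in place of TMM scaling, which moves the median log2 change of all genes from 0.05 to 0.26 in glomeruli and from -0.00 to 0.05 in cortex, 84 genes fell in both tissues instead of 251.

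The other genes with the largest falls in both tissues were Lmod1 and Myh11 of smooth muscle, Col5a2 (a fibrillar collagen), Ntrk3, Tlcd2, Pcdh19, B3galnt1, Fam161b and Raver2, with changes from -3.92 to -0.73 in glomeruli and from -1.27 to -0.75 in cortex. Myh11, smooth muscle myosin, was at 235, 331 and 325 CPM in control and 20.3, 15.3 and 23.1 in diabetic glomeruli, and at 19.5, 19.2, 26.1 and 32.2 and 12.8, 14.6, 15.1 and 15.1 in cortex, so the fall was far larger in glomeruli (-3.17 ± 0.28, adjusted p = 3.36e-06). All 12 tested smooth muscle markers fell in glomeruli and 2, Myh11 and Lmod1, in cortex. The calls of Pcdh19, Raver2 and Fam161b did not survive leaving out single libraries: Pcdh19 lost the glomerular call without any of control 1, 2 or 3+4 or diabetic 1+4 or 2 (adjusted p = 0.0512 to 0.128), and Raver2 without control 1 or 3+4 or diabetic 2 or 3 (0.0769 to 0.132). Fam161b lost it without control 3+4 or diabetic 2 (0.0572 and 0.0613). In cortex, Lmod1 was lost without control 1 or diabetic 2 or 3 (0.0549 to 0.0600), Ntrk3 without diabetic 3 or 4 (0.0635 and 0.0560), Tlcd2 without control 2 (0.0506), Pcdh19 without control 3 or 4 or diabetic 2, 3 or 4 (0.0622 to 0.0937), Raver2 without control 4 (0.0509) and Fam161b without control 4 or diabetic 3 (0.0507 and 0.0618).

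Genes of sterol and fatty acid synthesis were often lower in cortex, and some fell in both tissues. Of 27 tested, 7 rose and 4 fell in glomeruli and 1 rose and 13 fell in cortex. Of these, 3 fell in both tissues and 2 were called in opposite directions. Over all genes tested, 22.3% rose and 18.4% fell in glomeruli and 10.0% and 6.45% in cortex. The glomerular counts lay near those shares, with a list median of 0.02 there and -0.40 in cortex. Srebf1 (GRCm38 chromosome 11, 60199089 to 60222581), which encodes the lipogenic transcription factor SREBP-1, went from 121, 114 and 113 to 84.1, 84.8 and 82.9 CPM in glomeruli and from 55.8, 53.9, 55.98 and 45.1 to 40.8, 38.6, 37.9 and 42.1 in cortex. Its log2 change was -0.47 ± 0.08 in glomeruli (adjusted p = 0.000527) and -0.40 ± 0.07 in cortex (0.00259), with a difference of -0.07 ± 0.11. Dhcr7, of the last step of cholesterol synthesis, fell in both tissues as well, with log2 changes of -0.37 ± 0.11 and -0.46 ± 0.10. Dhcr7 lost the glomerular call without control 3+4 (adjusted p = 0.0695) and with diabetic sample 2 alone (0.262). Against this, Idi1, of isoprenoid synthesis, and Acaca, acetyl-CoA carboxylase, moved in opposite ways. Idi1 was at 16.2, 25.99 and 28.03 CPM in control and 38.4, 43.03 and 29.7 in diabetic glomeruli, and at 139, 139.6, 138 and 148 and 106, 84.5, 68.8 and 75.3 in cortex (0.66 ± 0.20 and -0.76 ± 0.17, difference 1.42 ± 0.26, adjusted p = 0.00123). Their glomerular calls were lost without control 1, diabetic 1+4 or diabetic 2, and for Acaca also without diabetic 3 (adjusted p = 0.0520 to 0.106), while the differences were kept.

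Per3, a period gene of the circadian clock, was called lower in both tissues, from 21.8, 19.6 and 26.5 to 8.07, 13.2 and 8.50 CPM in glomeruli and from 41.5, 42.1, 43.6 and 48.3 to 27.3, 30.3, 29.7 and 29.1 in cortex (-1.20 ± 0.16 and -0.59 ± 0.14). Of 20 tested clock genes, 4 rose and 6 fell in glomeruli and 2 rose and 2 fell in cortex. The shares over all genes tested were 22.3% and 18.4% in glomeruli and 10.0% and 6.45% in cortex. Wt1 (GRCm38 chromosome 2, 105126529 to 105173616), a transcription factor that in the adult kidney marks podocytes, was lower in both as well. It was at 279, 203 and 226 CPM in control and 138, 128 and 114 in diabetic glomeruli, and at 11.4, 10.9, 10.3 and 12.7 and 5.57, 8.06, 8.17 and 8.87 in cortex (-0.90 ± 0.15 and -0.56 ± 0.14), and its groups did not overlap. It was the only one of 30 tested podocyte markers that was called lower in both, against 14 lower and 2 higher in glomeruli and 1 lower and 2 higher in cortex.

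Genes that fell in glomeruli and rose in cortex included C3, Itga11 and Mmp2. C3 (GRCm38 chromosome 17, 57203970 to 57228136), the central component of complement, was at 215, 113 and 201 CPM in control and 20.2, 9.83 and 14.3 in diabetic glomeruli. In cortex it was at 12.3, 18.97, 32.9 and 21.8 in control and 80.7, 239.7, 219 and 122 in diabetic samples. The groups stood apart in both tissues, as its choice required. The log2 change was -3.57 ± 0.49 in glomeruli (adjusted p = 0.000106) and 2.94 ± 0.41 in cortex (0.000844), and the difference was -6.51 ± 0.64 (1.30e-05). Itga11 (GRCm38 chromosome 9, 62677826 to 62783982), a collagen-binding integrin of fibroblasts, went from 278, 88.2 and 258 to 8.80, 8.92 and 9.74 CPM in glomeruli, whereas in cortex it was 0, 0, 0 and 0.124 in control and 0.693, 0.737, 0.647 and 0.673 in diabetic samples. Its cortex level was low throughout, and its difference of -8.72 ± 0.82 joined a large fall with a rise from near 0. Mmp2 (GRCm38 chromosome 8, 92827291 to 92853420), a gelatinase that cleaves type IV collagen, fell from 1905, 1246 and 1818 to 232, 256 and 594 CPM in glomeruli and rose from 6.56, 3.07, 4.98 and 7.68 to 12.6, 26.5, 26.4 and 18.05 in cortex (-2.20 ± 0.42 and 1.90 ± 0.37, difference -4.10 ± 0.56, adjusted p = 0.000175).

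Lyz2 (GRCm38 chromosome 10, 117277331 to 117282321), lysozyme of macrophages and neutrophils, was at 313, 581 and 226 CPM in control and 75.7, 67.7 and 192 in diabetic glomeruli and at 17.2, 11.7, 13.5 and 20.6 and 53.8, 96.2, 93.6 and 54.2 in cortex. The changes of -1.74 ± 0.45 and 2.24 ± 0.40 differed by -3.98 ± 0.60 (adjusted p = 0.000358), and groups did not overlap, as its choice required. It was 1 of the 22 myeloid markers, and the only one called in opposite directions. Fas (GRCm38 chromosome 19, 34290666 to 34327772), the death receptor, was the p53 target that did so: 43.7, 57.6 and 50.9 CPM in control and 12.2, 10.9 and 13.6 in diabetic glomeruli, against 6.71, 8.93, 8.41 and 10.4 and 13.03, 14.2, 17.3 and 11.7 in cortex (-2.05 ± 0.18 and 0.71 ± 0.15). Cdkn2c, the cell cycle inhibitor p18, parted in the same way, from 16.9, 13.5 and 16.3 to 8.37, 7.11 and 10.2 CPM in glomeruli and from 12.7, 11.7, 10.5 and 9.11 to 17.4, 19.996, 16.2 and 20.5 in cortex (difference -1.62 ± 0.21, adjusted p = 0.000101). Col4a2, a chain of the basement membrane collagen, changed by -1.75 ± 0.13 in glomeruli and 0.44 ± 0.11 in cortex, and its partner Col4a1 by -1.47 ± 0.14 and 0.48 ± 0.12, the cortex call of Col4a1 being lost without diabetic cortex 2 or 3 (adjusted p = 0.0510 and 0.0526). All genes tested had 18.4% lower and 22.3% higher in glomeruli and 6.45% and 10.0% in cortex. Of 32 tested matrix genes 22 fell and 2 rose in glomeruli, and 1 fell and 6 rose in cortex, 4 of them in opposite ways. With diabetic glomerular sample 2 alone, 22 fell and 1 rose in glomeruli.

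The other genes with the largest opposite changes of this kind were Ccl2, Masp1 and Serpina3g of inflammation and complement, Gpnmb of lysosome-rich macrophages, and Kif21b, Shc2, Cdsn and Dclk1. Masp1 and Kif21b kept both calls when any 1 sample was left out. Their changes were -1.65 ± 0.45 and -1.56 ± 0.37 in glomeruli and 1.76 ± 0.39 and 1.61 ± 0.34 in cortex. The chemokine gene Ccl2 did not. In cortex it rose from 0.453, 0.372, 0.220 and 0.248 to 3.73, 5.06, 7.23 and 4.28 CPM, clear of any overlap, as its choice required. In glomeruli its control samples were at 16.8, 406 and 19.7 CPM and its diabetic samples at 12.9, 14.96 and 15.4. The glomerular change was -3.36 ± 0.96, and without control sample 2 it was -0.35 (adjusted p = 0.346). Its cortex call was also lost without any 1 of the 4 control samples or diabetic 3 (0.0563 to 0.0676). Gpnmb, Serpina3g and Dclk1 lost the glomerular call without 4 single samples each (adjusted p = 0.0508 to 0.141; for Gpnmb control 1 or 2 or diabetic 1+4 or 2, for Serpina3g control 1 or 2 or diabetic 2 or 3, for Dclk1 control 1 or 3+4 or diabetic 1+4 or 2). Cdsn and Shc2 lost the cortex call without control 1 or 3 or diabetic 3, and Shc2 also without control 2 (0.0503 to 0.0622).

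**Figure D4:**
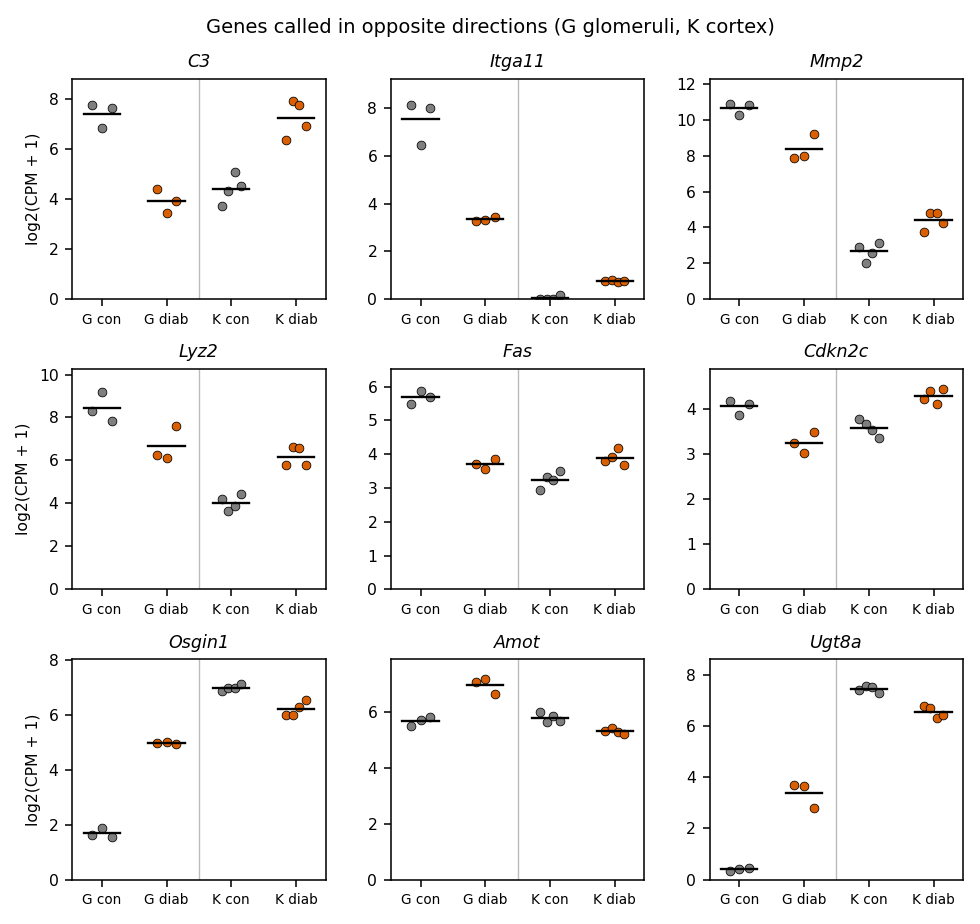
Log2(CPM + 1) per sample of 9 genes called in opposite directions, control samples in grey and diabetic samples in orange, with a bar at the group mean; glomeruli (G) are left and cortex (K) right of the line. In the first 6 panels diabetic samples lie below the controls in glomeruli and above them in cortex, and in the last 3 panels the reverse holds.

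Interferon-induced genes rose in cortex. Of 25 tested, 18 rose and 0 fell in cortex, and 1 rose and 5 fell in glomeruli, where 18.4% of all genes tested fell. The difference was called below 0 for 15 and above 0 for 0, where all genes tested had 16.2% below and 18.8% above. The list's median was -0.25 in glomeruli and 1.10 in cortex. Isg15 and Gbp2 were called in opposite ways and Zbp1, a sensor of Z-form nucleic acid, higher in both (2.38 ± 0.46 and 2.11 ± 0.36), although with diabetic sample 2 alone its glomerular change was 0.90 and not called (adjusted p = 0.181). The windows upstream of the RefSeq starts of Isg15 and Gbp2 are shown because they hold GAAA, any pair of bases and GAAA again, the repeat of the interferon-stimulated response element, in capitals. In Isg15 3 overlapping matches run together, and in Gbp2 the match is on the other strand.
Isg15, chr4:156200819-156201068, minus strand: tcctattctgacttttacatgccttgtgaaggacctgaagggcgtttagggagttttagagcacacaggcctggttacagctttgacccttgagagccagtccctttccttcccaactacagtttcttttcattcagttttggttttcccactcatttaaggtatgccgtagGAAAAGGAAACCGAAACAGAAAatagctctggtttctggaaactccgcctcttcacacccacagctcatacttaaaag
Gbp2, chr3:142620413-142620631, plus strand: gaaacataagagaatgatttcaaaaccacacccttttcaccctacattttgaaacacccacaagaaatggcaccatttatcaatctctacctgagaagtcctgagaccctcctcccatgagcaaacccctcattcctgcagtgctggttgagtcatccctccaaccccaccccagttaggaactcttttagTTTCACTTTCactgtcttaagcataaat
Of the 32851 windows of 250 bases before RefSeq starts, 2.98% hold a match on either strand. The Asns and Gbp2 windows are printed only as far as 30 bases into the gene that GENCODE annotates, whose start lies before the RefSeq start, and both matches fall within those bases.

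Isg15, a ubiquitin-like protein (GRCm38 chromosome 4, 156199424 to 156200818), was at 1.34, 2.14, 2.00 and 1.93 CPM in control and 6.45, 8.83, 8.39 and 6.67 in diabetic cortex, a rise of 2.03 ± 0.40 (adjusted p = 0.00525). In glomeruli it was at 9.82, 30.1 and 7.10 in control and 8.37, 4.77 and 4.27 in diabetic samples, which overlap, and the change was -1.42 ± 0.44 (0.0212). The difference was -3.46 ± 0.60 (0.000811). Gbp2, a guanylate-binding protein, was at 22.2, 43.1 and 20.1 and 15.2, 10.7 and 15.9 CPM in control and diabetic glomeruli and at 9.09, 11.9, 14.99 and 20.6 and 24.1, 38.9, 36.2 and 40.9 in cortex (-1.03 ± 0.34 and 1.31 ± 0.29, difference -2.34 ± 0.44, adjusted p = 0.00153). Control glomerular sample 2 was the highest control for both. Without it the glomerular changes of Isg15 and Gbp2 were -0.54 and -0.61 and no longer called (adjusted p = 0.182 and 0.139), and each was also lost without diabetic 2 (0.0665 and 0.0822), Isg15 also without diabetic 3 (0.0722). The differences between tissues remained called in all of these fits. Stat2, a signal carrier of the type I interferon receptor, fell from 46.5, 79.2 and 45.9 to 34.5, 24.4 and 24.1 CPM in glomeruli (-1.04 ± 0.21) beside 0.55 ± 0.18 in cortex (adjusted p = 0.0544), a difference of -1.60 ± 0.28 (0.000800).

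Immediate early and heat shock genes, which respond quickly to stress, rose in cortex. Of 29 tested, 18 rose and 1 fell in cortex and 3 rose and 4 fell in glomeruli (1 and 1 with diabetic sample 2 alone), with the difference called below 0 for 19. Fosl2, a FOS family member of AP-1, was opposite, from 347, 381 and 330.3 to 190.3, 203 and 245 CPM in glomeruli and from 18.8, 20.1, 24.2 and 29.1 to 49.998, 32.3, 53.05 and 53.9 in cortex (-0.73 ± 0.19 and 1.04 ± 0.17). Its glomerular call was lost with diabetic sample 2 alone (adjusted p = 0.0751). Nr4a1, an orphan nuclear receptor, rose by 3.01 ± 0.28 in cortex beside 0.18 ± 0.30 in glomeruli (difference -2.83 ± 0.41, adjusted p = 0.000223), and Egr1, a zinc finger factor, by 3.22 ± 0.40 beside -0.79 ± 0.43 (-4.01 ± 0.59, 0.000273). All genes tested had 10.0% higher and 6.45% lower in cortex and 22.3% and 18.4% in glomeruli. Of 27 inflammatory mediators 13 rose and 0 fell in cortex and 3 rose and 6 fell in glomeruli, 3 of them in opposite ways and 1 higher in both. Of 20 complement genes 7 rose and 0 fell in cortex and 6 rose and 7 fell in glomeruli, 2 of them in opposite ways and 4 higher in both. With diabetic sample 2 alone 0 complement genes rose and 5 fell in glomeruli. Relb, of the non-canonical NF-kappaB pathway, rose from 6.63, 4.42, 6.01 and 7.02 to 14.4, 16.4, 18.5 and 14.9 CPM in cortex, and was at 45.01, 62.9 and 42.99 and 38.7, 42.1 and 32.5 in control and diabetic glomeruli (difference -1.82 ± 0.24, adjusted p = 0.000101). With library totals, the glomerular medians of the immediate early and complement lists turned to 0.01 and 0.12, from -0.19 and -0.08.

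Genes that rose in glomeruli and fell in cortex were mostly genes of which the cortex holds more. Of the 204, 178 (87.3%) had a higher mean CPM in control cortex than in control glomeruli, against 50.9% of all genes tested and 28 (8.62%) of the 325 that went the other way. The same control levels entered the calls that define these classes, so part of this contrast may be built in. Tubule markers moved with some of this group: Ces1g, Clec2h, Slc22a19, Tmem25, Slc18a1 and Mep1b ranked the 3 diabetic glomerular samples in the order of the tubule marker sums. With sample 2 as the only diabetic glomerular sample, 117 of the 204 were still called in opposite ways, as were 161 of the 325. The part of tubule RNA in the glomerular rises was not tested.

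Osgin1, Amot, Adm2 and Ugt8a kept both calls in every fit that left out 1 sample. Osgin1 (GRCm38 chromosome 8, 119434124 to 119446256), a growth inhibitor regulated by NRF2, was at 2.08, 2.72 and 1.93 CPM in control and 30.1, 31.1 and 29.7 in diabetic glomeruli, and at 115, 124, 126 and 138 and 62.7, 62.7, 77.3 and 91.6 in cortex. Its log2 change was 3.77 ± 0.17 in glomeruli (adjusted p = 1.28e-08) and -0.77 ± 0.12 in cortex (0.00138), with a difference of 4.54 ± 0.20 (4.94e-08), and the 3 diabetic glomerular samples lay close together. Amot (GRCm38 chromosome X, 145446425 to 145505181), angiomotin, a scaffold that binds YAP and can hold it out of the nucleus, went from 44.7, 52.3 and 55.7 to 134, 145 and 101 CPM in glomeruli and from 62.8, 49.8, 57.3 and 50.3 to 38.9, 42.2, 37.9 and 36.2 in cortex (1.31 ± 0.13 and -0.50 ± 0.12, difference 1.82 ± 0.18). Adm2, a peptide hormone also called intermedin, went from 2.25, 1.71 and 2.13 to 5.79, 7.89 and 3.69 CPM and from 3.30, 2.32, 2.35 and 1.67 to 0.711, 0.772, 1.45 and 0.489 (1.51 ± 0.39 and -1.49 ± 0.34). Ugt8a, which makes galactosylceramide, went from 0.274, 0.343 and 0.357 to 12.1, 11.5 and 6.01 CPM and from 171, 189.9, 181 and 157 to 110.0, 103, 78.4 and 85.98 (4.89 ± 0.29 and -0.89 ± 0.17). Groups did not overlap in either tissue for these 4 genes, for Adm2 as its choice required. Sample 2 was not the lowest diabetic glomerular sample for any of them, and the part of tubule RNA in their rises was not tested.

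Several others followed the tubule markers from sample to sample. Ces1g, a carboxylesterase that clears lipid esters, had the largest fall in cortex of these genes, from 46.1, 45.2, 72.3 and 44.5 to 14.7, 10.2, 6.15 and 9.83 CPM (-2.35 ± 0.30, adjusted p = 0.000472). In glomeruli it was at 0.0274, 0.0527 and 0.0661 CPM in control and 0.687, 0.137 and 0.488 in diabetic samples, with sample 2 nearest the controls. Tmem25 was at 7.01, 1.12 and 3.25 and Slc18a1, a vesicular monoamine transporter, at 8.89, 2.65 and 4.59 CPM in diabetic samples 1+4, 2 and 3, again in the order of the tubule marker sums. With sample 2 alone the glomerular change was 1.37 for Ces1g and 0.86 for Tmem25 and neither was called (adjusted p = 0.461 and 0.103). The difference between tissues was lost in that fit for Ces1g (3.74, adjusted p = 0.0587), Cyp7b1 (2.40, 0.0664), Slc22a19 (2.60, 0.418) and Mep1b (2.25, 0.272). The remaining genes of this rank were Clec2h, Slc35f1, Cdh13, Cyp7b1, Pygl and Malrd1.

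Single samples carried many of these calls. In cortex Slc35f1 lost its call without control 1 or diabetic 2 or 3, Cdh13 without control 1 or diabetic 2 or 4, Clec2h without control 2 or 3 or diabetic 1, 2 or 3, and Slc18a1 without control 2 or 3 or diabetic 2, 3 or 4. Malrd1 lost it without control 2 or 3 or diabetic 2 or 4, Pygl without control 3 or 4 or any 1 diabetic sample, Cyp7b1 without diabetic 2, 3 or 4, and Mep1b without diabetic 3 or 4. The adjusted p-values of these fits ran from 0.0504 to 0.0987. Tmem25 lost the cortex call without diabetic glomerular 3, cortex control 1, 2 or 3 or any 1 diabetic cortex sample (0.0520 to 0.1001), and Slc22a19 without any 1 sample other than diabetic glomerular 1+4 and 2 (0.0550 to 0.126). In glomeruli Cdh13 lost its call without control 1 or 3+4 or diabetic 1+4 or 2, Cyp7b1 without control 1 or 3+4 or diabetic 1+4 or 3, Pygl without control 1 or diabetic 1+4, Slc22a19 without control 3+4 or diabetic 1+4, and Mep1b without diabetic 1+4 (0.0507 to 0.123). Ces1g, Slc22a19, Clec2h and Ugt2b34 belong to families of close copies, so their counts are uncertain.

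Markers of the tubule were called higher in glomeruli. In glomeruli 22 of 24 proximal and 20 of 21 distal markers rose, with medians of 3.44 and 3.89, and in cortex 0 rose and the medians were -0.36 and -0.26. With sample 2 alone 2 and 6 markers rose in glomeruli and the medians were 0.17 and 0.34, which is a description only, since sample 2 was singled out for its low sums of these same markers. Of 30 genes of xenobiotic and steroid metabolism 25 rose and 1 fell in glomeruli and 1 rose and 6 fell in cortex, 5 of them in opposite ways, and with sample 2 alone 4 rose and 1 fell in glomeruli. Some epithelial genes did not follow the tubule sums. Cdh1 (GRCm38 chromosome 8, 106603351 to 106670246), E-cadherin, was at 1.97, 6.56 and 2.14 CPM in control and 423, 425 and 261 in diabetic glomeruli, and at 209, 209, 224 and 247 and 201, 202, 208 and 199 in cortex. Its glomerular rise of 6.72 ± 0.43 had no counterpart in cortex (-0.13 ± 0.29), and the difference was 6.85 ± 0.49 (adjusted p = 9.79e-07). Krt8, a keratin of simple epithelia, went from 2.30, 19.01 and 2.58 to 1097, 1262 and 615 CPM in glomeruli and stood at 126, 123, 136 and 125 and 165, 178, 188 and 172 in cortex (difference 6.51 ± 0.85). Sample 2, the poorest in tubule markers, was the highest for both genes, and the source of these transcripts was not tested. Itgb6, Myh14 and Acox2, which were also called in glomeruli alone, had differences between 6.10 and 6.62. For Ugt2b34 the difference was 6.30 ± 1.12, and with sample 2 alone its glomerular change was 1.90 (adjusted p = 0.187).

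At the other end, among genes called in 1 tissue, Grem1, an inhibitor of BMPs, rose in cortex from 0.259, 0.0930, 0 and 0.0709 to 1.78, 7.88, 4.49 and 4.16 CPM (5.47 ± 0.80, adjusted p = 0.00102) beside 3.95, 11.8 and 5.38 and 12.1, 12.9 and 40.1 in control and diabetic glomeruli (1.62 ± 0.65, 0.0647). The difference was -3.85 ± 1.05 on counts, but 0.67 and not called on log2(FPKM + 1). Bgn, biglycan, fell from 1372, 990.2 and 1399 to 197, 181 and 304 CPM in glomeruli and stood at 215, 147, 169 and 229 and 229, 245, 288 and 237 in cortex (difference -2.86 ± 0.29, adjusted p = 1.02e-05). Cpe, Lsp1 and Col8a1 had differences of -2.85 ± 0.36, -2.98 ± 0.46 and -3.20 ± 0.38. In cortex alone the haemoglobin gene Hbb-bt fell, from 122, 214, 179 and 209 to 95.8, 57.5, 78.8 and 72.4 CPM, beside 1.84, 2.58 and 2.39 and 4.26, 3.47 and 2.20 in glomeruli (difference 1.81 ± 0.35, adjusted p = 0.00189), and all 5 tested red blood cell genes were lower in diabetic cortex.

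**Figure D5:**
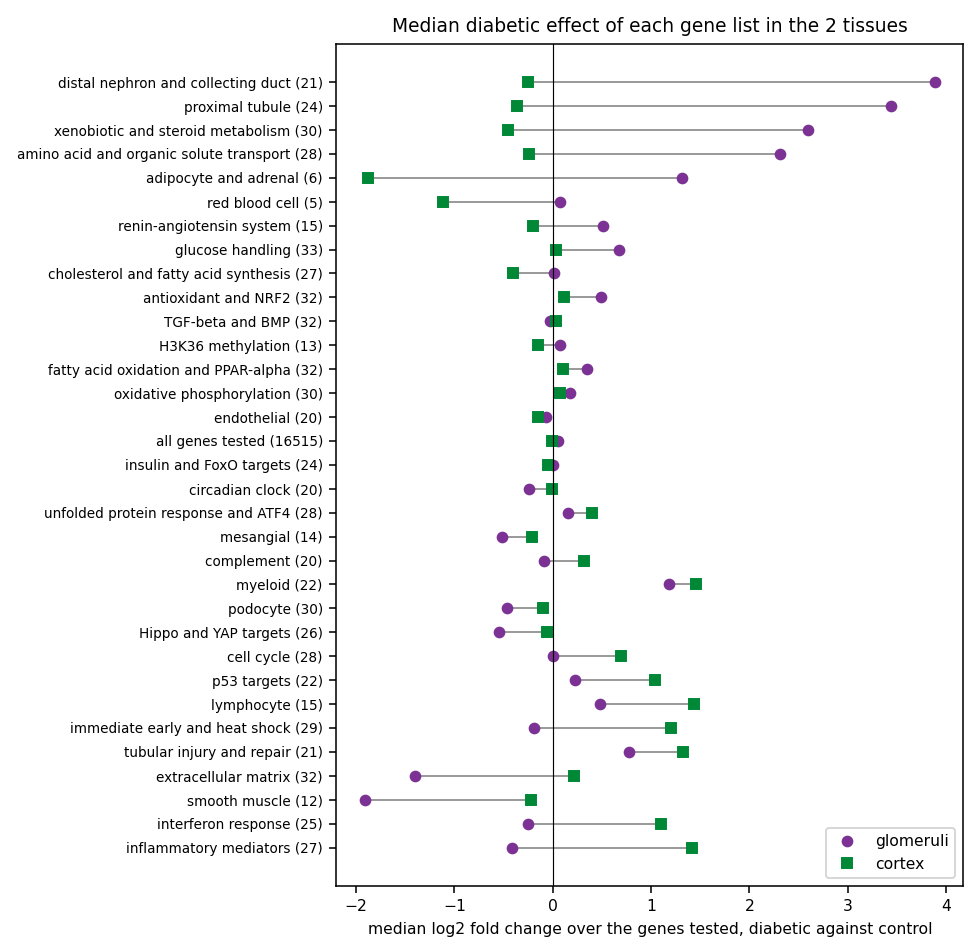
Median log2 fold change, diabetic against control, over the tested genes of each list (number tested in brackets) in glomeruli (circles) and cortex (squares), ordered by the median difference. Proximal and distal tubule lists have the highest glomerular medians (3.44 and 3.89), the interferon and inflammatory lists lie below 0 in glomeruli (-0.25 and -0.41) and above 0 in cortex (1.10 and 1.41), and all genes tested sit at 0.05 and -0.00.

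The genes of the study's title differed between tissues. Nsd2 (GRCm38 chromosome 5, 33820725 to 33897975), which dimethylates lysine 36 of histone H3, was at 27.1, 35.1 and 39.6 CPM in control and 71.8, 76.2 and 75.2 in diabetic glomeruli, and at 37.1, 42.4, 35.4 and 38.03 and 38.7, 36.6, 35.9 and 37.6 in control and diabetic cortex. The rise in glomeruli (1.13 ± 0.11, adjusted p = 5.94e-06) had no called counterpart in cortex (-0.04 ± 0.10), and the difference was 1.17 ± 0.15 (7.24e-05). The Hippo effectors Yap1 and Wwtr1 (which encodes TAZ) fell in glomeruli, with log2 changes of -0.59 ± 0.11 and -0.56 ± 0.09 beside -0.01 ± 0.09 and -0.11 ± 0.08 in cortex, with differences of -0.59 ± 0.14 and -0.45 ± 0.12 (adjusted p = 0.00684 and 0.0112). Lats2 and the YAP target Ccn2 fell in both tissues. The log2 changes of Lats2 were -0.82 ± 0.12 in glomeruli and -0.39 ± 0.10 in cortex (difference -0.43 ± 0.15). Those of Ccn2 were -1.21 ± 0.16 and -0.43 ± 0.13 (difference -0.78 ± 0.20). All genes tested had 18.4% lower and 22.3% higher in glomeruli and 6.45% and 10.0% in cortex. Of 26 tested Hippo genes and YAP targets, 15 fell and 4 rose in glomeruli, and 6 fell and 2 rose in cortex, with 3 lower in both, Lats2, Ccn2 and Igfbp3. Of these, Igfbp3 went from 145, 115 and 134 to 30.8, 32.4 and 38.3 CPM in glomeruli and from 494, 337, 396 and 308 to 249, 202, 242 and 241 in cortex (-1.96 ± 0.16 and -0.72 ± 0.14). Ccn1, a matricellular target of YAP, was opposite: 1672, 1611 and 1585 CPM in control and 911, 1059.7 and 814 in diabetic glomeruli, against 36.2, 34.8, 28.9 and 39.5 and 80.2, 92.3, 139 and 113 in cortex (-0.81 ± 0.18 and 1.60 ± 0.16, difference -2.41 ± 0.24, adjusted p = 8.53e-06), and with diabetic sample 2 alone its glomerular call was lost (adjusted p = 0.123). Ccn1 and Amot were the only 2 of the list with opposite calls.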

How the data were processed

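The authors deposited raw counts per gene symbol for glomeruli, estimated counts per Ensembl gene for cortex, and FPKM tables for both. Aligner, counter and strand setting were not given in the sources used here; builds GRCm38 and mm10 are named per the submitters' processing notes. The cortex counts are whole numbers as deposited. Symbols were joined through GENCODE names and RefSeq synonyms: of 24722 glomerular symbols 19796 matched directly and 295 by synonym, and 24 symbols with several cortex IDs were summed. The 19047 joined genes hold 93.7 to 97.1% of glomerular counts and 79.3 to 82.5% of cortex counts.

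One 4-group edgeR 4.0.16 quasi-likelihood model (R 4.3.3, TMM scaling, filterByExpr, robust) was fitted to 14 samples, with near-identical libraries summed, and p-values were Benjamini-Hochberg adjusted over all 16515 genes. Standard errors are the log2 change over the square root of F, and intervals use the test's degrees of freedom. DESeq2 1.42.0, limma 3.58.1 on FPKM, other scalings and filters, single samples left out, stricter thresholds and diabetic glomerular library 2 alone were alternatives. The model was tested on simulated data. Correlations of deviations did not show pairing by replicate number, which does not exclude it.

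The members and gene lists were chosen with earlier results of these data known. Genes named by class had separate groups in both tissues and reached 1 in mean log2 CPM. They were the 12 per class of genes called in both tissues with the largest smaller effect, the 6 largest differences per direction among genes called in 1 tissue, and Nsd2, Yap1, Wwtr1 and Lats2. Up to 4 members per list had the smallest p of the difference, and up to 4 more were called alike in both tissues. Genes called in opposite directions that are members of the lists, with Chac1, Bax and Trp53inp1, were named after their values were seen, and not every gene the rule gives is described. Gene positions are GENCODE M21 on GRCm38, and promoter windows are RefSeq on GRCm38.p6.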

Additional observations from a re-analysis of the deposited data

Results flagged for a closer look

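The effect of diabetes differed between glomeruli and cortex by the test of the difference itself in 3109 genes above 0 and 2682 below 0. Among the genes named above, the following differences (log2 change in glomeruli minus that in cortex) passed it. Genes that fell in glomeruli and rose in cortex had differences below 0: Itga11 (-8.72), Ccl2 (-7.35), C3 (-6.51), Cdsn (-5.05), Gpnmb (-4.56), Serpina3g (-4.31), Mmp2 (-4.10), Lyz2 (-3.98), Dclk1 (-3.77), Isg15 (-3.46), Masp1 (-3.41), Shc2 (-3.31), Kif21b (-3.17), Fas (-2.76), Ccn1 (-2.41), Gbp2 (-2.34), Col4a2 (-2.19), Col4a1 (-1.96), Fosl2 (-1.77) and Cdkn2c (-1.62). Genes that rose in glomeruli and fell in cortex had differences above 0: Clec2h (6.94), Ugt8a (5.78), Slc35f1 (5.59), Ces1g (5.42), Slc22a19 (5.41), Malrd1 (4.89), Osgin1 (4.54), Slc18a1 (4.33), Tmem25 (3.79), Mep1b (3.32), Adm2 (3.00), Cyp7b1 (2.58), Cdh13 (2.51), Pygl (2.31), Amot (1.82), Idi1 (1.42) and Acaca (1.32). Among genes that rose in both tissues the effect still differed for Bdkrb2 (4.32), Foxj1 (2.20), Gdf15 (-1.66), Gtse1 (-1.41), Inhbb (1.30), Ltc4s (1.19), Bax (-0.60), Txnrd1 (0.49) and Sesn2 (0.41), and among genes that fell in both for Myh11 (-3.17), Cbr2 (-2.67), Lmod1 (-1.93), Igfbp3 (-1.24), Col5a2 (-0.94) and Per3 (-0.60). Ccn2 (-0.78) and Lats2 (-0.43), which also fell in both, differed as well. The calls of Ltc4s, Sesn2 and Per3 rested on single samples: that of Ltc4s was lost without glomerular control 1 or 3+4 or diabetic 1+4 (adjusted p = 0.0527 to 0.0768), that of Sesn2 without any 1 of 12 samples (0.0607 to 0.119) and that of Per3 without any 1 of 10 (0.0624 to 0.118). With diabetic glomerular sample 2 alone the difference was no longer called for Ltc4s (0.66, adjusted p = 0.267), Sesn2 (0.56, 0.0581), Gdf15 (-1.43, 0.0830), Col5a2 (-0.95, 0.0523) and Per3 (-0.13, 0.677). Genes called in only 1 tissue, or in neither, had differences below 0 for Eda2r (-4.96), Egr1 (-4.01), Jchain (-3.89), Grem1 (-3.85), Cdkn1a (-3.66), Col8a1 (-3.20), Lsp1 (-2.98), Bgn (-2.86), Cpe (-2.85), Nr4a1 (-2.83), Relb (-1.82), Stat2 (-1.60), Atf5 (-0.98), Yap1 (-0.59) and Wwtr1 (-0.45), and above 0 for Cdh1 (6.85), Acox2 (6.62), Itgb6 (6.53), Krt8 (6.51), Ugt2b34 (6.30), Myh14 (6.10), Hbb-bt (1.81) and Nsd2 (1.17).

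In cortex, where a group has 4 samples, 16 of 218 gene and group pairs held 1 sample far from the other 3 by Dixon's ratio. Chance flags about 1 in 20 groups. Control cortex sample 3 stood apart for Krt20 (1.76 CPM), Ces1g (72.3 CPM) and Acaca (42.5 CPM). Control cortex sample 4 stood apart for Havcr1 (3.87 CPM), Itga11 (0.124 CPM), Masp1 (4.59 CPM), Slc22a19 (319 CPM), Mep1b (376 CPM) and Idi1 (148 CPM). Diabetic cortex sample 1 stood apart for Bdkrb2 (11.7 CPM). Diabetic cortex sample 2 stood apart for Igfbp3 (202 CPM) and Stat2 (40.7 CPM). Diabetic cortex sample 3 stood apart for Shc2 (1.49 CPM) and Atf5 (28.4 CPM). Diabetic cortex sample 4 stood apart for Txnrd1 (303 CPM) and Bax (64.6 CPM).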

How the results depend on the processing

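The 270 called values of the named genes leave out Lats2 and Ccn2. Of them, 269 kept their direction under every alternative run and 154 also stayed called. The exception in direction was the Grem1 difference, 0.67 on log2(FPKM + 1). Differences not called on counts that changed sign and were called were Lif (1.70 on log2(FPKM + 1)) and Havcr1 (3.20 without control glomerular sample 2, against -1.36 without control 3+4). Library totals in place of TMM gave 807 genes higher in both tissues and 84 lower in both, and 69.0% of called differences above 0 rather than 53.7% (64.6% on log2(FPKM + 1), 65.4% on log2(FPKM + 0.1)). DESeq2 gave 435 genes lower in both and 316 higher in glomeruli and lower in cortex, and fitting each tissue alone gave 331 of the latter. Membership of the opposite classes changed too. Of the 204 that rose in glomeruli and fell in cortex, DESeq2 kept 196, tissues fitted alone 141, library totals 136 and log2(FPKM + 1) 130. Of the 325 that did the reverse they kept 320, 250, 167 and 159. The FPKM fit tested 192 of the 204 and 314 of the 325. On log2(FPKM + 1), 100 fell in both and 204 fell in glomeruli and rose in cortex; on log2(FPKM + 0.1), 720 rose and 111 fell in both. With diabetic glomerular library 2 alone, 2029 differences were above 0 and 1720 below, and 198 genes fell in glomeruli and rose in cortex. That fit leaves 1 diabetic glomerular sample, assumed to vary like the other groups.

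At an adjusted p under 0.01 the differences numbered 1962 above and 1601 below 0, with 182 genes higher and 66 lower in both, 43 higher in glomeruli and lower in cortex, and 100 the reverse. With an absolute log2 change of at least 1 these were 1907, 1027, 152, 9, 29 and 48, and 65.0% of called differences were above 0. Leaving out 1 sample at a time gave 2445 to 3065 differences above 0 and 2229 to 2765 below. It gave 342 to 525 genes higher in both, 153 to 298 lower in both, 102 to 305 higher in glomeruli and lower in cortex, and 213 to 371 the reverse. The lowest of the last 3 counts came without diabetic cortex sample 3; 131, 135, 111 and 115 genes were higher in glomeruli and lower in cortex without cortex control 1 or 3 or diabetic 2 or 4, and 166 fell in both without diabetic 4. The cause of these shifts was not tested, beyond fewer samples or stricter limits.

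Correlations of same-numbered deviations ran from -0.15 to 0.07 and did not show pairing by replicate number. Tissues of the same mouse need not deviate together, so pairing is not excluded. With the replicate block on 16 separate libraries, 3389 differences were above and 2936 below 0 (3597 and 3095 without it, 3134 and 2753 with the block within condition), and 546, 302, 234 and 362 genes fell in the 4 classes. Depth limits genes near 1 CPM in a tissue, such as Itga11 and Grem1 in cortex; counting error there is large, and reads were not counted by molecule.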

Other observations

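Other gene groups told the tissues apart to different degrees. Their counts stand beside 22.3% higher and 18.4% lower in glomeruli and 10.0% and 6.45% in cortex over all genes tested. None of 20 tested endothelial markers was called in either tissue or in the difference, with medians of -0.07 in glomeruli and -0.15 in cortex. Of 28 cell cycle genes 12 rose and 1 fell in cortex, and 4 rose and 3 fell in glomeruli, with 9 differences below 0 and 1 above. Of 14 mesangial markers 2 rose and 3 fell in glomeruli and 1 rose and 1 fell in cortex. The 13 tested genes of H3K36 methylation, to which Nsd2 belongs, had 1 rise and 2 falls in glomeruli and 1 of each in cortex.

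Counts of metabolic lists are given beside all genes tested, of which 22.3% rose and 18.4% fell in glomeruli and 10.0% rose and 6.45% fell in cortex. Of 33 genes of glucose handling 17 rose and 0 fell in glomeruli and 3 rose and 0 fell in cortex, and of 32 genes of fatty acid oxidation 11 rose and 2 fell in glomeruli and 5 rose and 0 fell in cortex. Of 30 oxidative phosphorylation genes 9 rose in glomeruli and 3 in cortex, and of 28 solute transport genes 19 rose and 2 fell in glomeruli and 1 rose and 1 fell in cortex. With diabetic glomerular sample 2 alone, 4 rose and 4 fell in glomeruli for glucose handling, 5 and 4 for fatty acid oxidation, 3 and 0 for oxidative phosphorylation and 6 and 2 for solute transport. Tubule marker sums moved with these lists across the diabetic glomerular samples, and their part was not tested. Of 32 antioxidant and NRF2 genes 16 rose and 3 fell in glomeruli and 5 rose and 2 fell in cortex, and with sample 2 alone 9 rose and 2 fell in glomeruli. Of 15 genes of the renin-angiotensin system 6 rose and 2 fell in glomeruli and 0 rose and 1 fell in cortex, and with sample 2 alone 5 rose and 2 fell in glomeruli. Of 24 insulin and FoxO genes 4 rose and 7 fell in glomeruli and 3 rose and 2 fell in cortex. Among 6 tested adipocyte and adrenal genes, 1 rose in glomeruli and 0 changed in cortex.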
